A study of Mus musculus with 10 samples.

Results

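The Zic genes encode transcription factors with C2H2 zinc fingers related to those of the Gli proteins, the effectors of Hedgehog signalling. In the developing forebrain they are known for expression along the dorsal midline, in the septum, the cortical hem, the meninges and Cajal-Retzius cells, the early Reelin-producing neurons of the cortical surface, and much less in the projection neuron lineage of the neocortex. The 4 members described here, Zic1, Zic2, Zic4 and Zic5, were found by gene identifier among the 53379 genes of the count tables. They were selected on their read counts in cKO against control libraries, with the difference between the genotypes known. Their differences between genotypes are therefore given as a description, with no test.

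Cortex of E16 mouse embryos was taken from 2 genotypes, cKO-Cdkn1c-MADM-7 (cKO, n = 3) and MADM-7 controls (control, n = 7). A library was made by Smart-Seq2, which amplifies full-length cDNA, from 400 sorted cells of a single embryo. All embryos carried Emx1-Cre and MADM cassettes on chromosome 7 in a mixed C57BL/6J, CD1 background, and in cKO embryos both the GT and the TG cassette chromosome carried Cdkn1c-flox. Cdkn1c encodes the cyclin-dependent kinase inhibitor p57KIP2, and Emx1-Cre restricts its deletion and the MADM label to the Emx1+ lineage, so that other cells of the embryo kept the gene. GFP+, tdT+ and GFP+/tdT+ cells were sorted together. The tables hold raw read counts, from 1738220 to 3362487 reads on genes per library, and levels are given here as CPM, read counts scaled to a common library size with TMM factors. Cdkn1c was at 7.39 ± 3.402 CPM (SD, n = 3) in cKO and 95.1 ± 20.0 CPM (SD, n = 7) in controls, and an exact permutation test (two-sided) gave p = 0.00833, the smallest possible with 3 and 7 libraries.

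Zic genes lie in pairs. On GRCm38 with GENCODE M21, Zic1 covers chr9:91358058-91365810 on the minus strand and Zic4 covers chr9:91362413-91389348 on the plus strand, and the gene bodies overlap by 3398 bases. Zic5 covers chr14:122456795-122465677 on the minus strand and Zic2 covers chr14:122475435-122479852 on the plus strand, with 9.76 kb between their starts. Zic5 and Zic2 are thus transcribed away from each other, while the annotated start of Zic4 lies within the body of Zic1. Promoter windows from RefSeq, on GRCm38.p6 and from 250 bases before to 50 bases after the start, were found for 3 of the 4 members and are shown because the members of a pair are compared below. Capitals mark a CCAAT box (CCAAT), a GC box (GGGCGG) or an E-box (CACGTG) on either strand, and no match overlapped another.
Zic1, chr9:91365719-91366018, minus strand: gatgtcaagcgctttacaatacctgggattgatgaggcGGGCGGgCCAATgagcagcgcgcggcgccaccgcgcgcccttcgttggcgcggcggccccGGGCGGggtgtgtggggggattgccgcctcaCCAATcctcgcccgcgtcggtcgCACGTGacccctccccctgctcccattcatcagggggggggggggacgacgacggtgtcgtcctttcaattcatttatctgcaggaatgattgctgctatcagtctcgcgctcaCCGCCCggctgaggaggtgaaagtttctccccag
Zic4, chr9:91368722-91369021, plus strand: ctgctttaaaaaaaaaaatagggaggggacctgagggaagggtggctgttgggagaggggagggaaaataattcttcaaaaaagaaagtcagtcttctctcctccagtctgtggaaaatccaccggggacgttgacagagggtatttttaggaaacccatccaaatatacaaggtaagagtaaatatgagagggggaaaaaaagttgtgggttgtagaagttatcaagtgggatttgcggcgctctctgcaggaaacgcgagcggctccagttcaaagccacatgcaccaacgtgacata
Zic5, chr14:122465609-122465908, minus strand: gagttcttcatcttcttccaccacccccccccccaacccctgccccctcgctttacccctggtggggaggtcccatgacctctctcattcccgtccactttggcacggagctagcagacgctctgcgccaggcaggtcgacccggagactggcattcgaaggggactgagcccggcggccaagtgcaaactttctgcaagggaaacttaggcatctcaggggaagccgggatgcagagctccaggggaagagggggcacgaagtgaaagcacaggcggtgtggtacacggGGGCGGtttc

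The Zic1 window held 2 CCAAT boxes, 205 and 121 bases before the start, 3 GC boxes and 1 E-box. The Zic5 window held a single GC box, 40 bases after the start, and the Zic4 window held none of these motifs. Among 32851 promoter windows of the same length, 37.4% held a CCAAT box, 35.7% a GC box and 7.15% an E-box. A Gli and Zic element (GGGTGGTC), present in 0.807% of all windows, and a TATA box (TATAAA), present in 13.6%, were searched on both strands as well and matched in none of the 3 windows. GC content was 65.3% for Zic1 with 31 CpG dinucleotides and 62.7% for Zic5 with 15, against a median of 52.7% and 7 over all windows. The Zic4 window had 46.0% GC and 8 CpG, below the median in GC content, and it belongs to a RefSeq start that lies downstream of the GENCODE start of Zic4, within the gene body.

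Zic1, which in the hindbrain keeps cerebellar granule cell progenitors proliferating, had 71, 76 and 36 reads in cKO 1, 2 and 3. The 7 controls had 1, 24, 11, 14, 10, 13 and 14 reads, in the order of their replicate numbers. In CPM the cKO libraries were at 23.7, 29.7 and 15.1, and the controls had a lowest value of 0.360, a median of 4.64 and a highest value of 8.49. Every cKO library lay above every control, and the lowest cKO library exceeded the highest control by 6.66 CPM. The log2 fold change was 2.35 (SE 0.38), with means of 22.9 ± 7.31 CPM (SD, n = 3) in cKO and 4.56 ± 2.47 CPM (SD, n = 7) in controls.

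Zic2, known for its role in holoprosencephaly and for specifying the ipsilateral retinal projection, was carried mostly by a single library. Its reads were 156, 26 and 9 in cKO 1, 2 and 3, and 0, 5, 2, 7, 3, 2 and 3 in the 7 controls. The cKO libraries were at 52.2, 10.2 and 3.79 CPM, a 13.8-fold range, while the controls lay between 0 and 2.25 CPM with a median of 1.06. A count of 0 in control 1 allows a level of up to 1.08 CPM (3 reads, counting error only). The genotypes did not overlap, but cKO 1 held 81.7% of the cKO reads of this gene. The log2 fold change was 4.32 (SE 0.67) with cKO 1 and 2.59 without it. The control mean of 3.14 reads was under the filter of a mean of 10 reads over all libraries that the other genes had to pass, and Zic2 passed that filter only through cKO 1.

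Zic4, the partner of Zic1 on chromosome 9, was read 11, 25 and 38 times in cKO 1, 2 and 3, and 3, 43, 0, 10, 4, 7 and 27 times in the 7 controls. In CPM these were 3.68, 9.77 and 15.99 in cKO, and 0 to 15.2 with a median of 2.497 in controls. The genotypes overlapped, since control 2 and control 7 lay above cKO 1. For control 3, the 0 reads allow up to 0.876 CPM. The log2 fold change was 0.96 (SE 0.68), 0.43 without cKO 3 and 1.60 without control 2.

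Zic5, the partner of Zic2 on chromosome 14, had 39, 74 and 59 reads in cKO and 7, 43, 28, 21, 4, 11 and 19 reads in controls. The cKO libraries were at 13.0, 28.9 and 24.8 CPM, and the controls at 2.31 to 15.2 CPM with a median of 6.70. Control 2 lay above cKO 1, and the other 6 controls lay below every cKO library. The log2 fold change was 1.68 (SE 0.41), from 22.3 ± 8.24 CPM (SD, n = 3) in cKO and 6.51 ± 4.45 CPM (SD, n = 7) in controls.

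**Figure D1:**
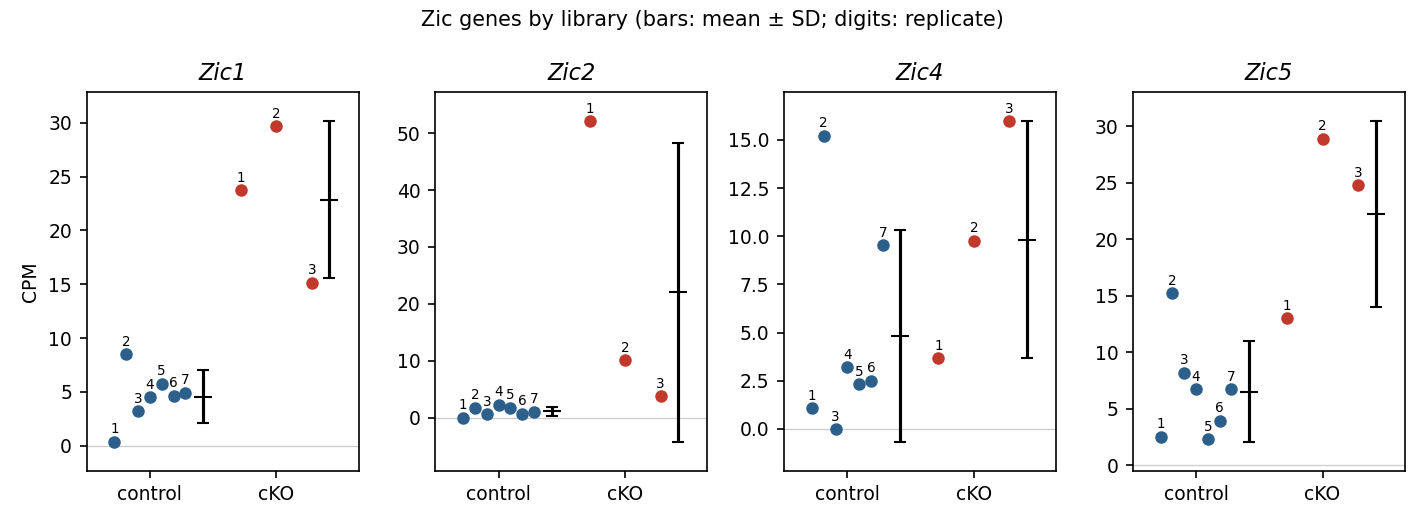
CPM (vertical axis) of Zic1, Zic2, Zic4 and Zic5 in 7 control and 3 cKO libraries, with a point per library, its replicate number beside it, and the mean ± SD of each genotype as a bar. The cKO points lie above all controls for Zic1 and Zic2, where cKO 1 stands at 52.2 CPM, and overlap the controls for Zic4 and Zic5, mainly through control 2.

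In all, 2 of the 4 members had every cKO library above every control, a pattern that 3.32% of the 11551 genes tested showed. This count restates the choice of the members and nothing is read from it. The median log2 fold change over all genes tested was 0.01. Summed over the 4 members, the Zic level was 92.6, 78.5 and 59.7 CPM in cKO 1, 2 and 3, and in controls it ran from 3.96 in control 1 to 40.7 in control 2, with a median of 12.1. In these bulk libraries, more cells that express Zic genes and more Zic RNA per cell cannot be told apart.

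Libraries also differed in the share of uniquely aligned reads that fell outside genes, a technical measure that split them into a set under 10% and a set over 10%, the limit being chosen after the values were seen. Under 10% were cKO 3 and controls 1, 2, 6 and 7, and over 10% were cKO 1 and 2 and controls 3, 4 and 5. In the set under 10%, the summed Zic level was 59.7 CPM in cKO and 3.96 to 40.7 CPM in controls. In the set over 10%, it was 78.5 to 92.6 CPM in cKO and 12.0 to 16.7 CPM in controls. The sets hold 1 cKO library against 4 controls and 2 against 3, and no test was run within them.

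Levels were compared between members per kb of exon that no other gene shares. In controls, Zic5 came first with a level of 1.33 ± 0.91 CPM per kb, followed by Zic1 with 0.809 ± 0.438, Zic4 with 0.493 ± 0.561 and Zic2 with 0.402 ± 0.275 (SD, n = 7). None of the neighbours in this order differed beyond the spread between libraries. The difference of Zic5 and Zic1 was 0.523 ± 0.703 CPM per kb and held in 5 of 7 controls, that of Zic1 and Zic4 was 0.316 ± 0.366, and that of Zic4 and Zic2 was 0.0908 ± 0.513, both in 4 of 7 controls. In cKO, the order was Zic2 with 7.65 ± 9.13, Zic5 with 4.55 ± 1.68, Zic1 with 4.06 ± 1.30 and Zic4 with 1.0 ± 0.63 CPM per kb (SD, n = 3), and only the step from Zic1 to Zic4, seen in 3 of 3 libraries with 3.06 ± 1.75 CPM per kb, exceeded its SD. This step depends on the lengths, which join all annotated exons, 5633 bases for Zic1 and 9807 for Zic4. In CPM, Zic4 was below Zic1 in cKO 1 and 2 and above it in cKO 3 (15.99 against 15.1).

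The makeup of the family varied between libraries. In cKO 1, Zic2 gave 56.3% of all Zic reads (Wilson 95% interval 50.4% to 62.0%), against 12.9% (9.0% to 18.3%) in cKO 2 and 6.34% (3.37% to 11.6%) in cKO 3. The intervals, which cover counting error only, overlapped between cKO 2 and 3 and not between cKO 1 and the others. Zic5 had the highest level per kb in cKO 2 and 3 and in 5 of 7 controls, and Zic1 in the other 2 controls. The controls rested on few reads, from 11 Zic reads in control 1 to 115 in control 2.

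**Figure D2:**
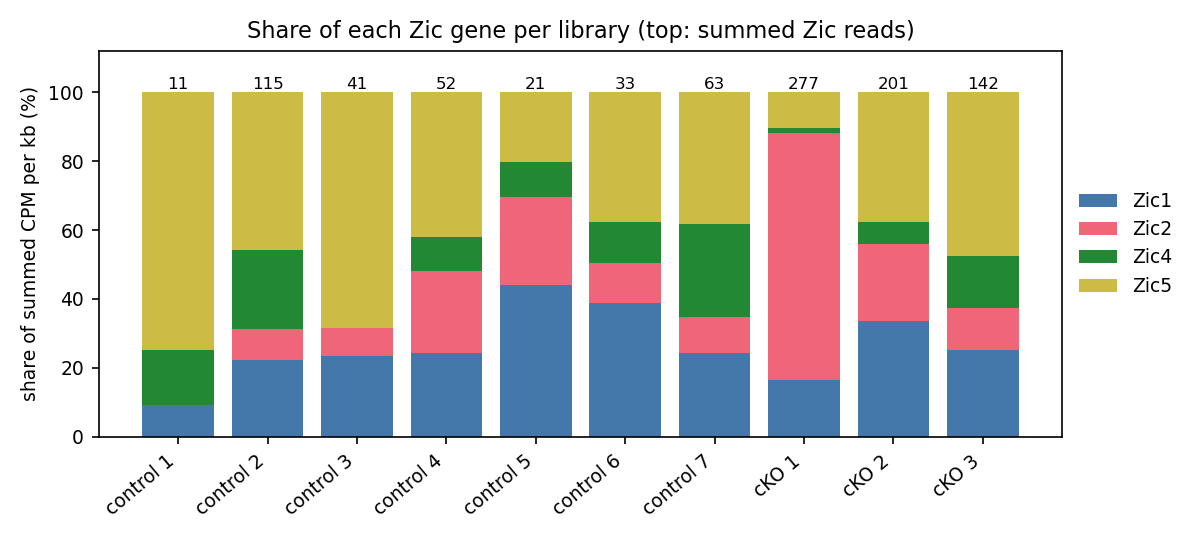
Share (vertical axis, percent) of each of the 4 Zic genes in their summed CPM per kb, in 7 control and 3 cKO libraries (horizontal axis), with the summed Zic reads of each library above its bar. Zic2 takes most of the bar in cKO 1, and Zic5 takes the highest share in cKO 2, cKO 3 and 5 controls.

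Variation of the Zic genes among the 7 controls did not choose the members, and it was large. Control 2 lay within the cKO range for Zic4 and Zic5, though for Zic5 it was above cKO 1 only. The summed Zic level of the controls was set against the mean log2 CPM of markers of 4 cell types that express Zic genes and against 2 technical measures, 6 relations in all. It rose with the score of 9 Cajal-Retzius cell markers (Pearson's r = 0.86, exact permutation p = 0.00397, adjusted p = 0.0238, and Spearman's rho = 0.96, exact permutation p = 0.00278, adjusted p = 0.0167, n = 7). Without control 1 and control 6, the libraries farthest from the median score, r was 0.83. The score held Lhx1 and Cacna2d2, which passed the filter only through the cKO libraries, and with the 7 markers that had a mean of at least 10 reads in controls, a choice made after seeing the data, r was 0.86 (exact permutation p = 0.00317, adjusted p = 0.0190) and rho 0.93 (exact permutation p = 0.00675, adjusted p = 0.0405). With each control left out in turn, r ran from 0.74 to 0.94, and the exact permutation test's adjusted p passed the threshold without control 3, 4 or 7 and missed it without control 1 (0.167), 2 (0.133), 5 (0.0667) or 6 (0.0667). The sets by reads outside genes hold 4 and 3 controls, too few for a value of r within them.

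The marker scores of the cortical hem and of meningeal fibroblasts moved with the Zic level as well. For 4 hem and roof plate markers r was 0.89 (exact permutation p = 0.0139, adjusted p = 0.0405) with rho = 0.68 (exact permutation p = 0.110, adjusted p = 0.219), and r was 0.31 without controls 1 and 2, the libraries farthest from the median score. For 3 meningeal markers r was 0.88 (exact permutation p = 0.0202, adjusted p = 0.0405) with rho = 0.82 (exact permutation p = 0.0341, adjusted p = 0.102), and r was 0.17 without the same libraries, so these relations of the hem and meningeal scores rested on them. With the 2 hem markers that had a mean of at least 10 reads in controls, r was 0.82 (exact permutation p = 0.00754, adjusted p = 0.0226), rho was 0.86 (exact permutation p = 0.0238, adjusted p = 0.0683), and r was 0.74 without controls 1 and 3, then the farthest from the median. With controls 1 and 2 left out for the Cajal-Retzius score as well, a choice made after seeing the data, its r was 0.65 (n = 5). The exact permutation test's adjusted p missed the threshold without each of controls 1, 2, 5, 6 and 7 for the hem (0.0667 to 0.283) and without each of controls 1, 2, 4, 5 and 6 for the meninges (0.05 to 0.283). The choroid plexus score, which held only Ttr, gave r = 0.42 (exact permutation p = 0.352, adjusted p = 0.529) and rho = 0.59 (exact permutation p = 0.174, adjusted p = 0.261). Neither reads on genes (r = 0.06, exact permutation p = 0.863, adjusted p = 0.868, and rho = 0.14, exact permutation p = 0.783, adjusted p = 0.783) nor the share outside genes (r = 0.08, exact permutation p = 0.868, adjusted p = 0.868, and rho = 0.43, exact permutation p = 0.354, adjusted p = 0.424) passed the threshold.

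**Figure D3:**
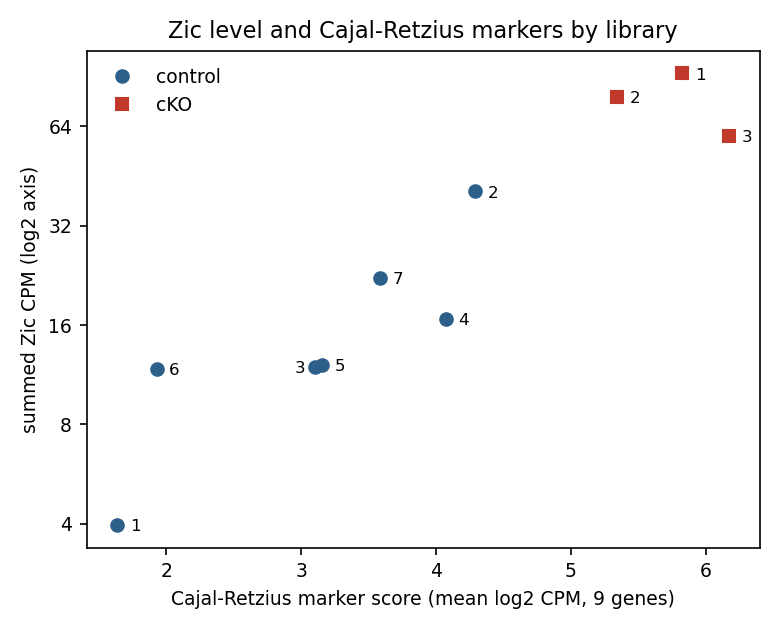
Summed CPM of the 4 Zic genes (vertical axis, log2 scale) against the Cajal-Retzius marker score (horizontal axis, mean log2 CPM of 9 genes), with a point per library and its replicate number. The 7 controls rise from control 1, at a score of 1.64, to control 2, at 4.29, and the 3 cKO libraries lie beyond them at scores of 5.34 to 6.17.

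Within controls, the members varied together to different degrees. Pearson's r of log2 CPM, as a description over 7 libraries with few reads, was 0.86 for Zic1 and Zic2, 0.58 for Zic1 and Zic4, 0.54 for Zic1 and Zic5 as well as for Zic2 and Zic4, 0.45 for Zic4 and Zic5, and 0.42 for Zic2 and Zic5. Spearman's rho was 0.71 for Zic1 and Zic4 and for Zic2 and Zic4, 0.64 for Zic1 and Zic2, 0.39 for Zic4 and Zic5, 0.32 for Zic2 and Zic5 and 0.14 for Zic1 and Zic5. The order of the pairs thus differed between the measures.

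Markers of Cajal-Retzius cells moved with the Zic genes between the genotypes. By edgeR's quasi-likelihood test with Benjamini-Hochberg adjustment over all 11551 genes, 2.27% of genes were called higher and 0.883% lower in cKO. Of 11 Cajal-Retzius markers, 9 were tested and 8 were higher, with a median log2 fold change of 2.69 over the 9. The summed level of the list was 770.0 to 1040 CPM in cKO and 80.2 to 304 CPM in controls, and none of its genes was at 0 throughout. Reln, the secreted protein that directs neuronal layering, was at 243, 361 and 278 CPM in cKO and at 2.85 to 78.2 CPM in controls, with a median of 57.8 (log2 fold change 2.71, SE 0.41, adjusted p = 0.000949). Lhx1, a LIM homeodomain factor, had a log2 fold change of 3.68 (SE 0.54, adjusted p = 0.000231), and Ndnf, a secreted neuronal factor, one of 3.19 (SE 0.48, adjusted p = 0.000788). Trp73, the p53 relative that marks these cells, had one of 2.69 (SE 0.45, adjusted p = 0.00214). Calb2, Lhx5, Nhlh2 and Cacna2d2 were the other members called higher, with log2 fold changes of 1.84 to 2.86, and Slc17a6, a glutamate transporter, was at 0.45 (adjusted p = 0.354). Lhx1 and Cacna2d2, with means of 3.29 and 6.14 reads in controls, passed the filter of a mean of 10 reads only through the cKO libraries, and of the other 7 tested markers 6 were higher. Without cKO 1, Cacna2d2 lost its call (adjusted p = 0.0654) and Slc17a6 passed (adjusted p = 0.0265). DESeq2 did not call Ndnf (adjusted p = 0.235) or Trp73 (adjusted p = 0.0807), and Cacna2d2 missed on replicates 1 to 3 of both genotypes alone (adjusted p = 0.137). Their part in the Zic levels was not tested.

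Cells of the hem and roof plate and of the choroid plexus, which can express Zic genes, were followed by their own markers. Of 15 hem and roof plate markers 4 were tested and none was called, with a summed level of 85.6 to 134 CPM in cKO and 48.9 to 146 CPM in controls, and the list's median log2 fold change was 0.70. Of the 4 tested, 2 had a mean under 10 reads in controls, and the median of the other 2 was 0.53. Wnt5a, a secreted Wnt ligand of the hem, had a log2 fold change of 1.07 (SE 0.32, adjusted p = 0.0843), Bmp7, a BMP ligand, one of 1.14 (SE 0.54, adjusted p = 0.297), and Rspo2, a Wnt agonist, one of 0.34 (SE 0.73, adjusted p = 0.875). The most abundant marker of the list was Rspo3, another Wnt agonist, with 512 reads in cKO and 1257 in controls (65.2 ± 21.4 CPM, SD, n = 3, against 65.4 ± 19.1 CPM, SD, n = 7). Wnt3a, which defines the hem, had 5 reads in cKO and 9 in controls, and Lmx1b was at 0 in all libraries. Of 7 choroid plexus markers only Ttr, the transthyretin carrier of that epithelium, was tested (32.1, 5.47 and 54.3 CPM in cKO, 0 to 19.8 in controls, adjusted p = 0.0753, but 0.0163 without cKO 2 and 0.0240 without control 2), while Kl and Kcne2 were at 0 throughout. The list's summed level was 7.81 to 59.3 CPM in cKO and 0 to 23.0 CPM in controls. Their part in the Zic levels was not tested.

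Of 14 meningeal fibroblast markers 3 were tested and none was called, with a median log2 fold change of 0.85 and a summed level of 44.1 to 75.4 CPM in cKO against 25.7 to 45.6 CPM in controls. Dcn, a matrix proteoglycan, was at a log2 fold change of 0.94 (adjusted p = 0.137), Lama1, a laminin chain, at 0.85 (adjusted p = 0.284), and Ptgds, a prostaglandin synthase, at -0.29 (adjusted p = 0.826). The collagen Col1a1, a defining marker, was read 11 times in cKO and 10 times in controls. Of 10 subpallial and septal markers 6 were tested and 1 was higher, beside 2.27% of all genes tested, with a median of 1.21 and summed levels of 40.6 to 115 CPM in cKO and 14.5 to 52.5 CPM in controls. Of the 6 tested, 2 had a mean under 10 reads in controls, and the median of the other 4 was 1.35. The gene called was Dlx2, a homeodomain factor of the ventral forebrain (log2 fold change 1.63, SE 0.41, adjusted p = 0.0354). Its call was lost without cKO 1 (adjusted p = 0.0951) or 3 (0.152) and without each of controls 3 to 7 (0.0581 to 0.0685), as well as on replicates 1 to 3 of both genotypes alone (log2 fold change 1.07, adjusted p = 0.400), and Nkx2-1 was at 0 throughout. Dlx5, another such factor, was at 1.37 (adjusted p = 0.219), and Gad2, a GABA-synthesizing enzyme, at 1.34 (adjusted p = 0.230). The share of these cells in the Zic levels was not tested.

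Of 14 vascular, microglial and blood genes 4 were tested, all haemoglobins, and none was called (median log2 fold change 0.92). The summed level was 53.5 to 2256 CPM in cKO and 3.24 to 1798 CPM in controls. Hba-a1 was at 986, 16.8 and 6.31 CPM in cKO and at 0 to 646 CPM in controls (adjusted p = 0.746), and cKO 1, which had the highest Zic2 level, had the highest Hba-a1 level. The mean log2 CPM of the 4 haemoglobins was 7.51, 2.54 and 1.94 in cKO 1, 2 and 3 and -0.46 to 8.57 in controls. The microglial genes were too low to be tested, with 26 reads in cKO and 0 in controls for Csf1r, 27 and 2 for C1qa, 14 and 4 for C1qb and 13 and 3 for Cx3cr1, mostly from cKO 3. The part of blood cells and microglia in the Zic levels was not tested. The tested haemoglobins went both ways, since Hba-a2 had 8 reads in cKO and 707 in controls (log2 fold change -5.24, adjusted p = 0.239) and Hbb-bt was at 1.03 (adjusted p = 0.733).

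Genes of the dorsal cortex, the labelled tissue, were all 12 above the filter, with summed levels of 2867 to 3198 CPM in cKO and 4079 to 5014 CPM in controls. None was higher and 3 were lower, beside 0.883% of all genes, with a median log2 fold change of -0.27 over the list. Neurod6, a bHLH factor of projection neurons, fell by 0.98 on the log2 scale (SE 0.14, adjusted p = 0.000471), and its relative Neurod2 fell by 0.75 (SE 0.14, adjusted p = 0.00566). On replicates 1 to 3 of both genotypes alone, the call of Neurod2 was lost (-0.76, adjusted p = 0.108). Neurod6 and Neurod2 thus lay on the other side of 0 from the Zic genes in the same libraries, but not all of the list did. Of the 12 genes, 5 had a log2 fold change above 0. The highest was Emx2 at 0.91 (SE 0.28, adjusted p = 0.0910), with 58.2, 48.8 and 64.8 CPM in cKO and 10.4 to 45.6 CPM in controls.

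The Gli and Glis genes, which encode the closest zinc-finger relatives of the Zic proteins, gave no call. Of 6 genes 3 were tested, with a median log2 fold change of 0.61. Gli2, a Hedgehog effector, was at 17.7, 20.7 and 10.5 CPM in cKO and at 4.94 to 13.9 CPM in controls (log2 fold change 0.84, SE 0.33, adjusted p = 0.199). Gli3, mainly a repressor, was at 14.4, 100.0 and 21.9 CPM in cKO and at 22.3 to 41.6 CPM in controls, so that cKO 2 was far above and the other 2 cKO libraries below every control. Its log2 fold change of 0.61 (SE 0.41, adjusted p = 0.513) became -0.72 without cKO 2. Glis2 was at 0.14 (adjusted p = 0.894).

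Of 13 Hedgehog pathway genes 8 were tested and 1 was higher, beside 2.27% of all genes tested, with a median log2 fold change of 0.22. This was Gas1, a co-receptor of Hedgehog ligands, at 47.8, 55.5 and 35.3 CPM in cKO and at 15.6 to 25.4 CPM in controls (log2 fold change 1.25, SE 0.23, adjusted p = 0.00404). Every cKO library lay above every control for Gas1. On replicates 1 to 3 of both genotypes alone, its log2 fold change was 1.23 and the call was lost (adjusted p = 0.0897). Ptch1, the receptor and a target of the pathway, was at 1.14 (SE 0.35, adjusted p = 0.0930), and Sufu, a repressor of Gli proteins, at -0.50 (SE 0.33, adjusted p = 0.501), which passed without cKO 2 (-1.32, adjusted p = 0.0276). The ligands were hardly read. Shh had 4 reads in cKO and 3 in controls, and Dhh had 0 in every library.

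Among 6 described targets and partners of Zic proteins, 3 were tested and edgeR called none, with a median log2 fold change of -0.52. Ephb1, the axon guidance receptor that Zic2 induces in retinal ganglion cells, was at 34.8, 35.2 and 29.5 CPM in cKO and at 38.7 to 78.2 CPM in controls, so every cKO library lay below every control (log2 fold change -0.87, SE 0.24, adjusted p = 0.0554, and 0.0335 without control 5). Ephb1 passed with DESeq2 (adjusted p = 0.0149), with the sum of the strand columns (0.0491) and with no filter (0.0248). Epha4, another Eph receptor, was at -0.52 (SE 0.24, adjusted p = 0.294, and 0.0492 without cKO 2), and Apoe, an apolipoprotein with Zic sites in its promoter, at 0.66 (SE 0.36, adjusted p = 0.387). Apoe stood at 30.1, 37.5 and 117 CPM in cKO, and its log2 fold change became -0.18 without cKO 3. Atoh1, which Zic1 represses in the cerebellum, was at 0 in every library.

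**Figure D4:**
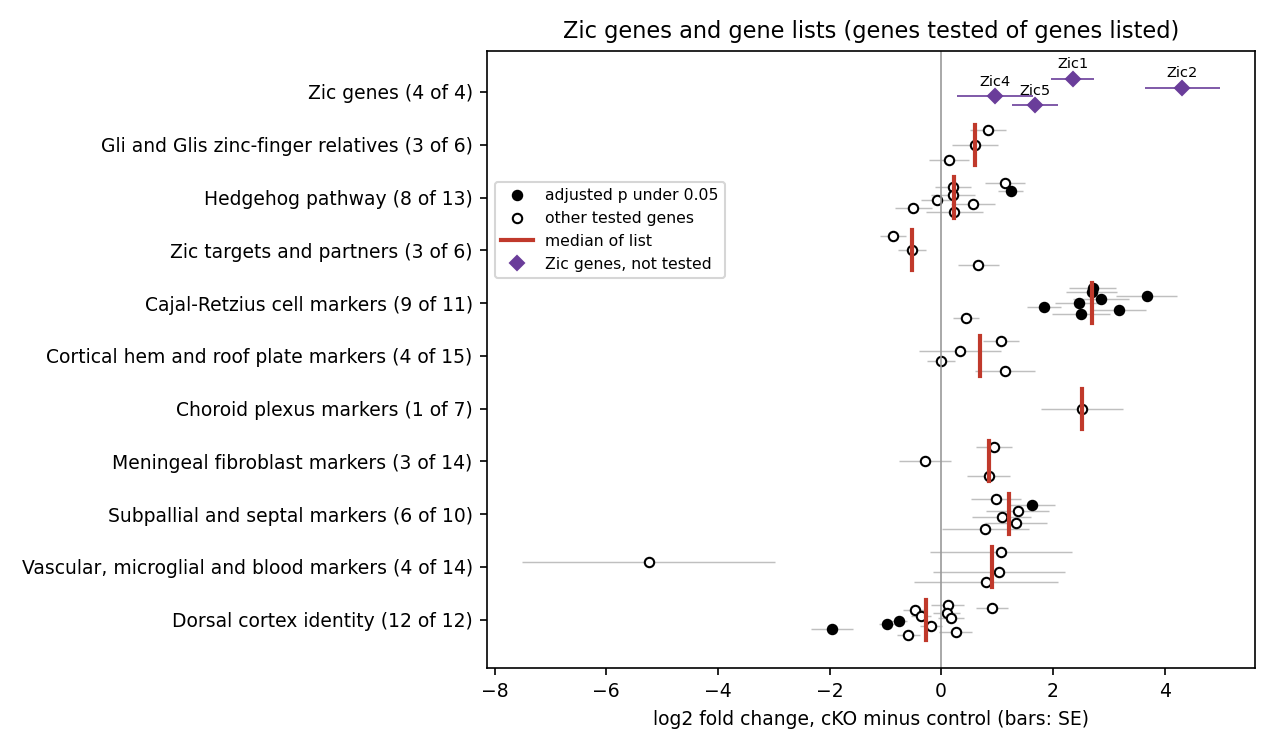
Log2 fold change, cKO minus control, with its SE (horizontal axis) for the 4 Zic genes (diamonds, no test) and for the tested genes of 10 lists (rows), filled where the adjusted p is under 0.05, with the list's median as a red line. Of the lists, that of the Cajal-Retzius cell markers has 8 of 9 tested genes called higher, at 1.84 to 3.68, and the dorsal cortex list has 3 called lower.

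The genes beside the Zic loci were read from the same test, and few of them had enough reads. Within 1 Mb of Zic1 and Zic4, 28 other genes are annotated and 1 was tested, the pseudogene Gm5620, 260 kb away, with a log2 fold change of -0.39 (SE 0.32, adjusted p = 0.605). Within 1 Mb of Zic2 and Zic5, 35 other genes are annotated, 8 were tested and 1 was called, beside 3.15% of all genes tested in either direction. The gene called was Gm5089 (ENSMUSG00000115263.1, chr14:122365239-122406743, minus strand, annotated as antisense), whose nearer edge lies 50.1 kb from Zic5. It had 37, 43 and 40 reads in cKO, and 2, 17, 2, 2, 14, 1 and 15 reads in controls. No control reached the lowest cKO count, and controls 2, 5 and 7 stood above the other 4. The log2 fold change was 2.45 (SE 0.53, adjusted p = 0.0130), and the call was lost without cKO 3 (adjusted p = 0.0529). Gm5089 had a mean of 7.57 reads in controls, so it too passed the filter only through the cKO libraries.

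Gm5089 lies across Clybl, a mitochondrial lyase gene on the other strand, which was at a log2 fold change of 1.19 (SE 0.50, adjusted p = 0.237). The libraries carried no strand information, so reads of these 2 genes cannot be told apart by strand where both are annotated. Another gene of the same symbol, 5.68 kb from Zic5, had 9 reads in cKO and 11 in controls and was not tested. On the other side, Pcca, a propionyl-CoA carboxylase gene 54.5 kb from Zic2, was at 0.83 (SE 0.27, adjusted p = 0.117). Between Zic5 and Zic2 lies 2610035F20Rik, which was not tested and had 11, 5 and 7 reads in cKO against 0 to 5 in controls. The other 5 tested neighbours on chromosome 14 were at -0.34 to 1.12, with none called.

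**Figure D5:**
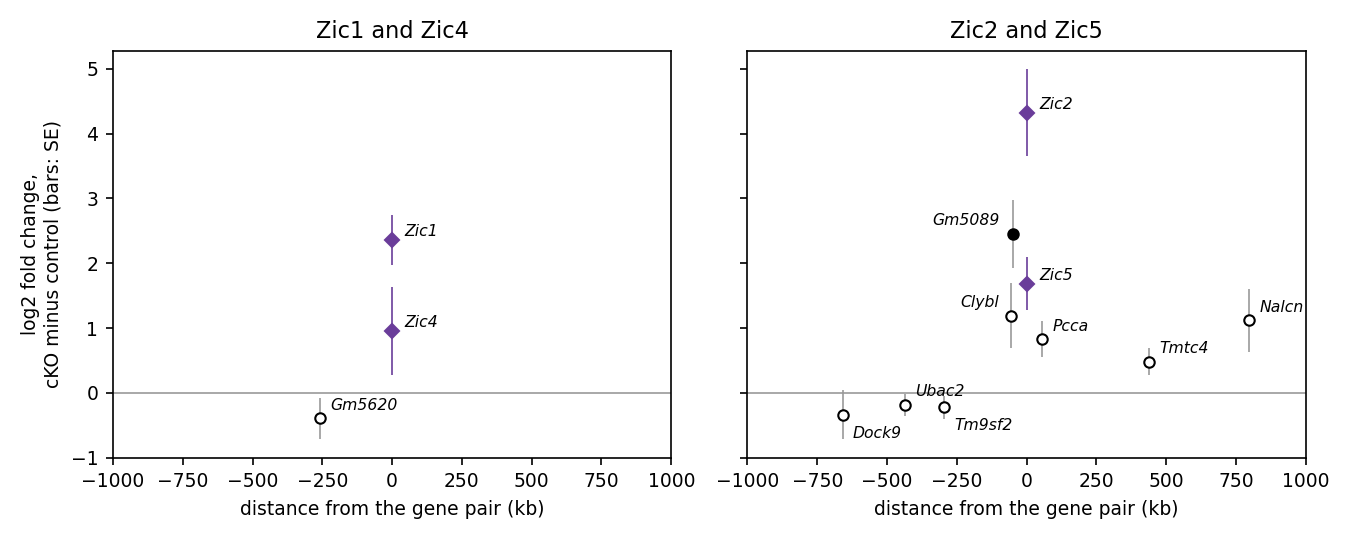
Log2 fold change, cKO minus control, with its SE (vertical axis) for the tested genes within 1 Mb of the Zic1 and Zic4 pair (left) and of the Zic2 and Zic5 pair (right), against the distance from the nearer edge of the pair in kb (horizontal axis). Zic genes are diamonds at 0 kb, and the filled point, Gm5089 at 2.45, is the gene called.

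The genes whose pattern was most like that of the Zic genes were found by Pearson's r with the mean z-scored log2 CPM of the 4 members. The members themselves correlated with this mean at 0.95 for Zic1, 0.89 for Zic5, 0.82 for Zic2 and 0.76 for Zic4. Each member is part of the mean, and the genotype difference that chose the members is included, so these values are high in part by construction. Over 10 libraries, the difference between the genotypes included, the 10 highest were Isoc1 (0.95), Nhlh1 (0.93), Cdkn1a (0.93), Id3 (0.93), Cacna2d2 (0.93), Vegfa (0.93), Ddr2 (0.92), Tob2 (0.92), Slc16a14 (0.92) and Igfbp5 (0.91). Nhlh1 is a neuronal bHLH factor, Cdkn1a encodes the cyclin-dependent kinase inhibitor p21, and Cacna2d2 is on the Cajal-Retzius list. By deviations from the means of each genotype the highest were Zfp599 (0.95), Sox9 (0.94), Pcdhb14 (0.92), Knop1 (0.90) and Stx17 (0.90), none of which is among the 10 above. These values describe 10 libraries and are the highest of all genes tested. Sox9, a factor of radial glia, was at 152 ± 11.2 CPM (SD, n = 3) in cKO and 120 ± 30.6 CPM (SD, n = 7) in controls. Pcdhb14 went the other way from the Zic genes between the genotypes, with r = -0.36 over 10 libraries. It was at 1.94 ± 0.593 CPM (SD, n = 3) in cKO and 8.64 ± 4.80 CPM (SD, n = 7) in controls.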

How the data were processed

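Smart-Seq2 libraries of 400 sorted cells each were sequenced from 3 cKO and 7 control embryos. The authors merged technical replicates, aligned reads to GRCm38 with STAR (2.5.0c per the processing notes), kept uniquely aligned reads and deposited raw counts per GENCODE M16 gene. Reads aligned to several places or lying on several genes were not counted, which can lower Zic1, Zic4 and the stretches that relatives share. The strand-independent counts were used. Reads are not molecules, so counting intervals cover counting error only. GENCODE M21 gave symbols and positions for all but 105 of 53379 genes. The 11551 genes that averaged 10 or more reads were compared between genotypes with edgeR 4.0.16 in R 4.3.3 (TMM, quasi-likelihood test, genotype alone, Benjamini-Hochberg threshold 0.05), and the common coefficient of biological variation was 28.3%. List scores are the mean log2 CPM of tested genes with 2 prior reads, and the summed Zic level on the log2 scale has 0.5 reads added. SEs come from the coefficient and its F statistic. Exact permutation tests used scipy 1.17.1, and matplotlib 3.10.9 drew the plots. On simulated data, the edgeR fit recovered 49% of genes changed by 1 on the log2 scale and 82.5% of those changed by 2. Of its simulated calls, 6.52% were false. A missing call therefore does not show an unchanged level. Library pairs within a genotype differed beyond counting error, and same-numbered libraries did not deviate together, so numbers do not pair them.

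The genes named are the Zic genes, Cdkn1c, the called genes and the 3 smallest p of each list, called and nearest tested neighbours, the 10 and 5 genes most like the Zic genes, and markers at 0. Values of Slc17a6, Emx2, Gm5089's second gene, 2610035F20Rik, Clybl, Wnt3a, Rspo3, the microglial genes, Col1a1 and Shh were added after being seen. The members and lists were chosen with earlier results of these data known. Some genes covered by these rules are not reported here. Alternatives were DESeq2 1.42.0, limma-voom (limma 3.58.1), other size factors, no filter, the sum of the strand columns, the share outside genes as a covariate, the replicate block, another pseudocount and each library left out.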

Additional observations from a re-analysis of the deposited data

Results flagged for a closer look

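In each of 63 measures, the 7 controls were searched for a library far from the others, by the gap to its nearest neighbour as a share of the whole range, with Dixon's 95% limit for 7 values. Chance gives about 1 in 20, and 5 passed. The Zic genes and their sum were not among them. Control 2, which had the highest summed Zic level of the controls, stood apart in 3 genes whose pattern was most like that of the Zic genes. Those genes were picked by their correlation over these same libraries, so this follows in part from the choice. They were Isoc1 (gap 0.653 of the range, 96.2 CPM against 63.5 in the next control), Cdkn1a (0.757, 68.6 against 24.0 CPM) and Vegfa (0.62, 12.7 against 9.003 CPM). Control 1, with the lowest Zic level, had the lowest dorsal cortex score (0.689, a mean log2 CPM of 7.31 against 7.63 in the next control). Control 5 had the lowest Neurod2 level (0.616, 456 against 515 CPM).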

How the results depend on the processing

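The 4 Zic genes kept a log2 fold change above 0 under every alternative run, and over leaving out each library in turn the values ran from 2.14 to 2.58 for Zic1, 2.59 to 4.78 for Zic2, 0.43 to 1.60 for Zic4 and 1.44 to 2.01 for Zic5. With limma-voom Zic4 was at 1.78 and with the share outside genes as a covariate at 1.54. Without cKO replicate 1 Zic2 was under the filter, and its value is from the fit without a filter. Genes called were 961 with no filter (701 higher, 260 lower), and DESeq2 called 210 lower, against 364 (262 higher, 102 lower), and 271 to 419 with a library left out. Replicate numbers were shared by 3 cKO and 3 control libraries, but their deviations correlated at 0.04, -0.10 and -0.21, so they do not pair. With the replicate block 230 genes were called (156 higher) and without it, on replicates 1 to 3 only, chosen after seeing the data, 151 (99 higher, 52 lower). Both lost Gas1 (1.22 with the block, adjusted p = 0.0908), Dlx2, Cacna2d2 and Neurod2, leaving 0 Hedgehog and 0 subpallial genes higher, and the block called 1 blood gene, Hba-a2, lower. No filter called 2 Hedgehog genes higher, 1 Gli gene, 1 hem gene, 1 choroid plexus gene and 1 dorsal cortex gene higher, 6 vascular, microglial and blood genes higher and 1 lower, and 1 Zic target, Ephb1, lower. DESeq2 and the sum of strand columns also called 1 Zic target, Ephb1, lower, and DESeq2 lost the calls of Ndnf and Trp73. The cause of these changes was not tested.

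With 1 library left out, 0 to 1 gene was called lower for the Hedgehog list and the Zic targets, 0 to 1 higher for the choroid plexus and subpallial lists, and 0 to 1 beside the Zic loci. Over the same fits Gli3 ran from -0.72 to 1.07, Glis2 from -0.13 to 0.40, Apoe from -0.18 to 1.01, Ptgds from -0.64 to 0.075, Hba-a1 from -3.78 to 1.89 and Hbb-bt from -3.48 to 1.92. With the covariate Glis2 was at -0.029 and Hba-a1 at -0.17, and Rspo2 was at -0.305 with the block and -0.37 without it on the same libraries. Among controls left out in turn, r of the Zic level was 0.74 to 0.94 with the Cajal-Retzius score, 0.79 to 0.99 with the hem score, 0.78 to 0.95 with the meningeal score, -0.0405 to 0.13 with reads on genes and -0.40 to 0.31 with the share outside genes. Depth limits the lower members most, since Zic2 had 22 reads over all controls.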
